A study of Rattus norvegicus with 44 samples.

Results

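The Reg family secreted lectins were followed here through 4 genes, Reg3g, Reg3b, Reg3a and Reg1a, each of which had 1 probe set on the array (10863410, 10856474, 10856481 and 10856488). They were taken as the probe sets whose single annotated symbol was one of these names, 4 of the 14324 genes that the annotation gave by a probe set with 1 symbol. The genes were chosen by their log2 levels with leukaemia inhibitory factor (LIF) against untreated ovaries, so the values of that comparison are given for these genes as a description without a test.

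RNA was measured on Affymetrix Rat Gene 1.0 ST arrays, and the values are log2 expression levels. The samples were whole ovaries of 4-day-old female Sprague-Dawley rats kept in organ culture for 2 days, and all groups shared strain, age and culture. The treated groups received 50 ng/ml of LIF (rat), AMH (human), BMP4 (human), FGF2 (rat), FGF7 (human), GDNF (rat), KITLG (mouse) or PDGFab (rat), 3 samples each, and the 14 Control samples received no growth factor. A separate set held 3 samples with human CTGF at the same dose and 3 untreated samples of its own, called CTGF control. Each sample pooled the 2 or 3 ovaries of 1 culture well, from different pups of a litter, so that p-values measure the spread between wells. For GDNF the study's text counts 2 replicates, the labels give 3, and all 3 were used.

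Reg genes encode small secreted proteins that consist of little more than 1 C-type lectin fold. They are best known from the exocrine pancreas and the intestinal epithelium, where Reg3g and Reg3b act against bacteria in mice. Reg3b was first described in rats as the pancreatitis-associated protein, and Reg1a is known as a pancreatic stone protein. Cytokines of the interleukin 6 family, to which LIF belongs, signal through the gp130 receptor chain, JAK kinases and the transcription factor STAT3, and Reg genes of the pancreas and gut are known to be induced by such cytokines. The 4 genes lie next to each other on rat chromosome 4 in the order Reg3b, Reg3a, Reg1a and Reg3g, with a Reg3b pseudogene and a long noncoding RNA gene, neither with a probe set of its own symbol here, among them. Reg3g lies on the minus strand and the other 3 on the plus strand.

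The promoters of the 4 genes are shown because the genes sit in 1 cluster and were high together. Each window runs from 250 bases before to 50 bases after the annotated start in RefSeq on the GRCr8 build, and all 4 genes matched by symbol. Capitals mark matches to TTCNNNGAA, the letters of the site that STAT factors bind, which reads alike on both strands.
Reg3g, chr4:112484689-112484988, minus strand: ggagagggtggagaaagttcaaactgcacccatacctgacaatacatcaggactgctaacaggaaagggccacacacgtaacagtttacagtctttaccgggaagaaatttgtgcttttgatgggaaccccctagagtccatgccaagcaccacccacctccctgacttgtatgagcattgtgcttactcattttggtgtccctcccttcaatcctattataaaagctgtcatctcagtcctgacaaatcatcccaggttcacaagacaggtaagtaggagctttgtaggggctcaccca
Reg3b, chr4:112419526-112419825, plus strand: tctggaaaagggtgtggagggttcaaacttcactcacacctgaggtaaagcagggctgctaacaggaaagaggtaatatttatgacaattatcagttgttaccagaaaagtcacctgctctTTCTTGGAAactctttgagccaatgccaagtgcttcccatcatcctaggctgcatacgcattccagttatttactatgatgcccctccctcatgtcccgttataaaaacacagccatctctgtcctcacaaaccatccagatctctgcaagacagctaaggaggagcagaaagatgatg
Reg3a, chr4:112430147-112430446, plus strand, the first of 2 listed starts: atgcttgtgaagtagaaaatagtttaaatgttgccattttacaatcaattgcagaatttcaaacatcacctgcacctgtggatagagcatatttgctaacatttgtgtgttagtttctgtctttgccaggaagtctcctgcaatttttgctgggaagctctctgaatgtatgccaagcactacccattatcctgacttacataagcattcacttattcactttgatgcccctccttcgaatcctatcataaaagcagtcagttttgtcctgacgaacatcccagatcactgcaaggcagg
Reg1a, chr4:112450216-112450515, plus strand: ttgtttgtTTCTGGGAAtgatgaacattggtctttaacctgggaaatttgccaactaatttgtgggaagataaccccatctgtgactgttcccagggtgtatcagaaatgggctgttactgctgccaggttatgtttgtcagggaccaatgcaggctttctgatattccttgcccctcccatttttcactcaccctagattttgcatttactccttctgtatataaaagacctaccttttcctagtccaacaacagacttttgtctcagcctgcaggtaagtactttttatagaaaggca
The letters occurred once each in 2 of these windows. The match in Reg3b, TTCTTGGAA, began 129 bases before the start, and that in Reg1a, TTCTGGGAA, began 242 bases before it. Of 33469 promoter windows of this length in the RefSeq table, 8.87% held at least 1 match. TTNNGNAAN, a loose form of the letters bound by C/EBP factors searched on both strands and not capitalized, was found in the Reg3a window alone, at 2 places that overlapped no other match, against 41.2% of all windows. A match is a run of letters in a window and was not tested as a binding site.

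The arrays of the first set had median log2 levels between 5.93 and 6.01, and those of the CTGF set, which the authors preprocessed apart, between 6.29 and 6.35, so levels were compared within a set. In the CTGF set the arrays with replicate number 1 stood apart from the others in both groups: 201 of 27342 probe sets (0.735%) were more than 1 log2 unit above replicates 2 and 3 in both CTGF and CTGF control, and 3 of the 4 Reg genes were among them. This margin was chosen after the values were seen. On the log2 scale a difference of 1 is a change of 2-fold.

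Reg3g, whose product binds the cell wall of Gram-positive bacteria in mice, had log2 levels of 10.53, 10.80 and 9.78 in LIF-treated ovaries, against a lowest, median and highest level of 4.77, 5.13 and 6.74 in the 14 Control samples. Every LIF sample was far above every Control sample, and the lowest LIF sample was 3.03 log2 units, or 8.19-fold, above the highest Control sample. The means were 10.37 ± 0.53 with LIF (SD, n = 3) and 5.31 ± 0.62 in Control ovaries (SD, n = 14), a difference of 5.06 that is 33.2-fold between geometric means.

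Reg3b had log2 levels of 7.58, 8.34 and 6.44 in LIF-treated ovaries, against 3.87, 4.12 and 4.59 as the lowest, median and highest of the Control samples. The LIF samples again did not overlap the Control samples, but they differed among themselves by 1.90 log2 units, the widest range with LIF among the 4 genes. The LIF mean of 7.46 ± 0.96 (SD, n = 3) was 3.31 log2 units above the Control mean of 4.14 ± 0.20 (SD, n = 14). The Control mean lay under 4.52, the mean log2 level used as a limit for dim probe sets, so the difference is not given as a fold. The Control means of Reg3a and Reg1a, 3.85 and 4.34, also lay under it.

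Reg3a, a close relative of Reg3b, had log2 levels of 4.71, 5.68 and 4.68 in LIF-treated ovaries, against 3.68, 3.83 and 4.14 in Control ovaries (lowest, median and highest). Reg1a had 5.81, 6.09 and 5.14 with LIF, against 4.15, 4.27 and 4.90 in Control ovaries. In both genes all 3 LIF samples were above all Control samples by a narrow margin, 0.54 log2 units for Reg3a and 0.24 for Reg1a between the lowest LIF and the highest Control sample. The differences between the means were 1.17 for Reg3a and 1.34 for Reg1a. For each of the 4 genes the second LIF sample was the highest, the first was next and the third was the lowest.

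That all 3 LIF samples lay above every Control sample held for 4 of 4 members and for 97 of all 27342 probe sets (0.355%), and since this contrast chose the members nothing is read from their count. Reg4, the only other Reg gene with a probe set, lies on another chromosome and had log2 levels of 3.89, 3.89 and 4.05 with LIF. Over all 44 arrays the Reg4 probe set stayed between 3.83 and 4.40, low and flat where the members were high. In RNA of whole ovaries more cells that express a gene and more RNA per cell cannot be told apart.

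**Figure D1:**
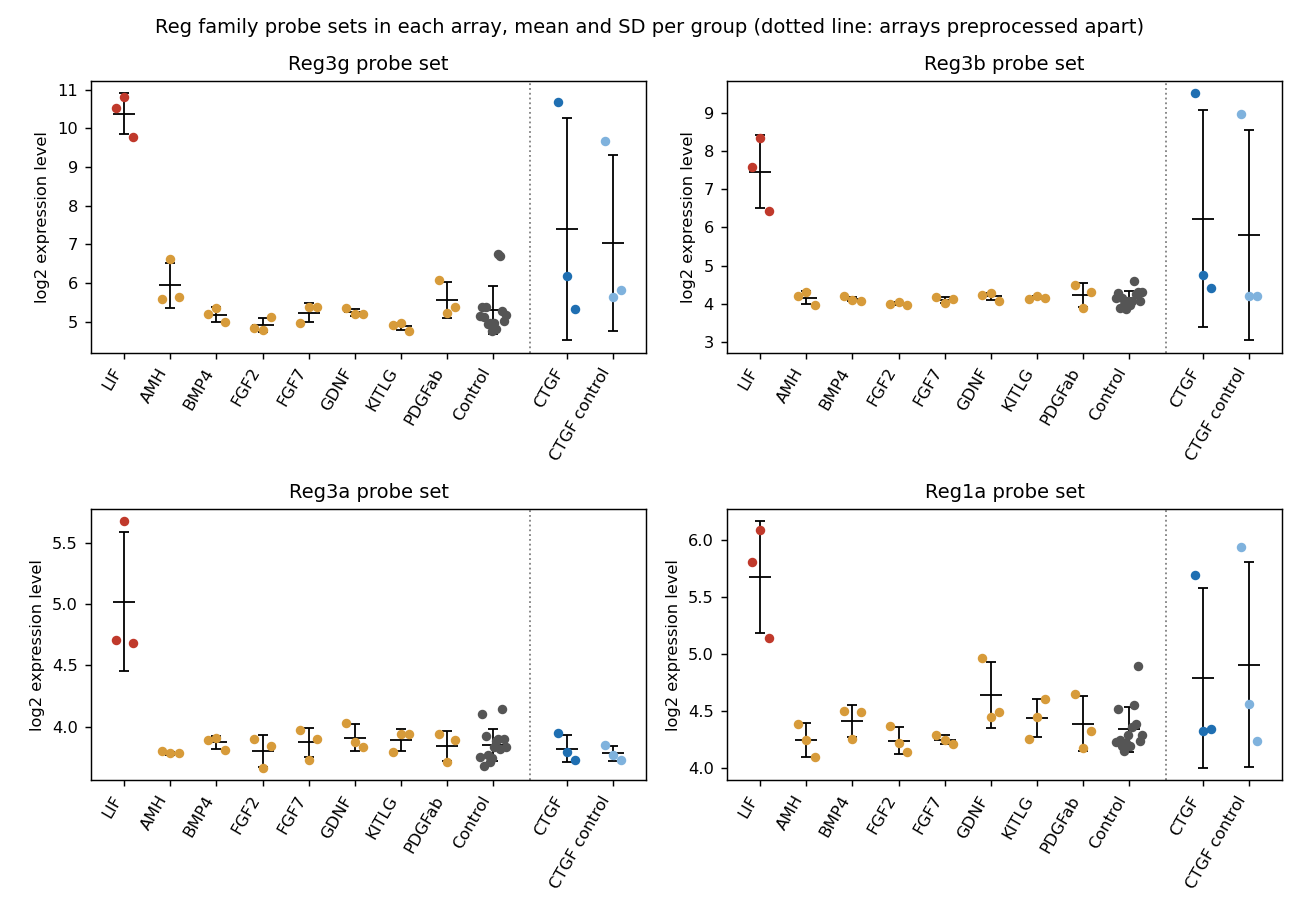
Log2 expression level of the Reg3g, Reg3b, Reg3a and Reg1a probe sets (vertical axes, 1 panel per gene) in each of the 44 arrays by group; points are samples, horizontal bars are group means and error bars are SDs, and the dotted line divides the 2 sets that were preprocessed apart. The 3 LIF samples lie above all 14 Control samples in each panel, and 1 CTGF and 1 CTGF control sample are high for Reg3g, Reg3b and Reg1a but not for Reg3a.

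The question for the other growth factors was whether any of them moved the same genes. None of the 28 comparisons of a member with 1 of the 7 other factors passed an adjusted p of 0.05 in limma, which fits a linear model to every probe set. All 21 arrays of these factors were below the lowest LIF sample for each of the 4 genes, a description only, since LIF levels chose the members. An unadjusted p under 0.05 in limma was found for 2 of the 28. The methods' t-test had an unadjusted p under 0.05 for 1 of the 28, Reg1a with GDNF, and called none after Benjamini-Hochberg adjustment. Of all probe sets, those called in either direction were 0% with AMH, 0.274% with BMP4, 0.94% with FGF2, 0.0805% with FGF7, 1.89% with GDNF, 0.0439% with KITLG and 0.234% with PDGFab. For AMH, where limma called 0 probe sets, 1388 had an unadjusted p under 0.05 and the methods' t-test also called 0.

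Reg3g with AMH was 1 of the 2 with an unadjusted p under 0.05 in limma. The AMH samples had log2 levels of 5.58, 6.61 and 5.63, against a Control range of 4.77 to 6.74. All 3 were above the Control median and within the Control range, with the second the highest of them. The top of that range was Control samples 10 and 11, and all 3 AMH samples were above the other 12, which ended at 5.38. The AMH mean was 5.94 ± 0.58 (SD, n = 3), against 5.31 ± 0.62 in Control ovaries (SD, n = 14). The difference was 0.63 (95% interval 0.03 to 1.23, adjusted p = 0.982 from limma, exact two-sided permutation p = 0.0824). Without the second AMH sample the difference was 0.29, and without Control samples 10 and 11 it was 0.86 (adjusted p = 0.13 from limma). The study's own criteria, which take an unadjusted p of the methods' t-test up to 0.05 together with linear means whose ratio reaches 1.2 or falls to 0.83 and which lie 10 or more apart, were met by 0 of the 28 comparisons. With the unadjusted p of limma in their place, the same limits were met by 1 of them, Reg3g with AMH.

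Reg1a with GDNF was the other such comparison. The GDNF samples had log2 levels of 4.97, 4.45 and 4.49, all above the Control median of 4.27, and the first of them was above the highest Control sample. The difference was 0.30 (95% interval 0.01 to 0.58, adjusted p = 0.27 from limma, exact two-sided permutation p = 0.0368 before any correction for the 28 comparisons). Without the first GDNF sample the difference was 0.13, and after quantile normalization of the arrays it was 0.18. With array quality weights it was 0.34 with an adjusted p of 0.0428 from limma, a setting under which 5637 probe sets were called with GDNF in place of 517. Marker lists of other cell types had median differences with GDNF of 0.18 over 10 pancreatic acinar genes, 0.20 over 6 islet genes, 0.13 over 7 intestinal genes and 0.15 over 8 neutrophil genes, against 0.04 over all probe sets. Their part in the Reg1a level was not tested.

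The remaining differences were small against the spread. Reg3g ran between -0.43 with KITLG and 0.25 with PDGFab, where the first sample at 6.08 was high and the other 2 were at 5.23 and 5.37. Reg3b differed from Control ovaries by -0.14 with FGF2 to 0.09 with PDGFab, and Reg3a by -0.07 with AMH to 0.05 with GDNF. Reg1a differed by -0.10 with AMH and FGF2 to 0.10 with KITLG, apart from GDNF. The 95% intervals of Reg3b over the 7 factors all lay within -0.51 and 0.46, and those of Reg3a within -0.31 and 0.29. When the 9 groups of the first set were ordered by mean level, LIF was first for each gene and did not overlap the group after it. The members were chosen by their LIF levels, so nothing is read from the place of LIF. Below LIF the ranges of every pair of neighbours in that order overlapped, in all 4 genes. For Reg3g that order was AMH, PDGFab, Control, GDNF, FGF7, BMP4, FGF2 and KITLG.

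**Figure D2:**
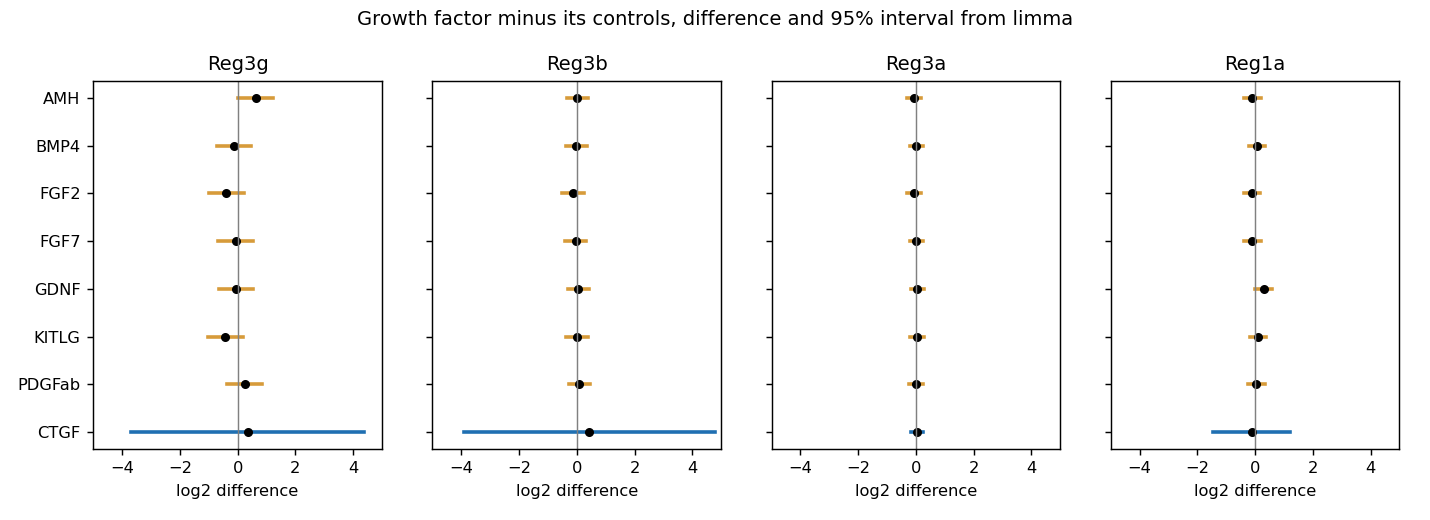
Difference in log2 level between a growth factor and its controls (horizontal axes) for each Reg gene and factor other than LIF, with points for the estimates and bars for the 95% intervals from limma. The intervals of the 7 factors of the first set lie within -1.04 and 1.23, and those of CTGF are wider, reaching -3.92 and 4.78 for Reg3b.

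With CTGF, a matrix-associated growth factor, Reg3g had log2 levels of 10.67, 6.18 and 5.32, against 9.67, 5.64 and 5.81 in CTGF control ovaries. Reg3b had 9.51, 4.75 and 4.42 with CTGF, against 8.98, 4.21 and 4.20 in CTGF control ovaries. The first sample of each group was high and the other 2 of each group were low, in the treated and the untreated ovaries alike. Between the first sample and the next highest of its group the gap for Reg3g was 4.49 log2 units with CTGF and 3.86 in CTGF control ovaries, and for Reg3b it was 4.76 with CTGF and 4.77 in CTGF control ovaries.

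Reg1a showed the same 2 samples as high, with log2 levels of 5.70, 4.33 and 4.34 with CTGF and 5.94, 4.56 and 4.24 in CTGF control ovaries. Reg3a did not, with 3.95, 3.79 and 3.73 with CTGF and 3.85, 3.77 and 3.73 in CTGF control ovaries. Reg3a thus lay above its controls in every LIF sample, and in the first sample of the CTGF groups it was at most 0.16 above the next. The 4 genes are related in sequence, and how far a probe set of one takes up RNA of another was not tested. Among all 27342 probe sets, the SD over the 3 CTGF control samples ranked 2 for Reg3b (2.76), 8 for Reg3g (2.28) and 173 for Reg1a (0.90), counted from the most variable.

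None of the 4 members was called with CTGF, where limma called 0 of 27342 probe sets (0%), 854 had an unadjusted p under 0.05 and the methods' t-test called 0. The differences between CTGF and CTGF control were 0.35 for Reg3g (SE 1.67, 95% interval -3.68 to 4.38), 0.43 for Reg3b (SE 1.81), 0.04 for Reg3a (SE 0.08) and -0.12 for Reg1a (SE 0.55), each with an adjusted p of 1.0 from limma. Within pairs of the same replicate number Reg3b was higher with CTGF by 0.53, 0.54 and 0.22, and Reg3g differed by 1.00, 0.54 and -0.49. With the pair as a block the Reg3b difference of 0.43 had an SE of 0.08, a 95% interval of 0.23 to 0.63 and an adjusted p of 0.346 from limma, so it was not called. Without the replicate 1 pair the differences were 0.02 for Reg3g, 0.38 for Reg3b, 0.01 for Reg3a and -0.06 for Reg1a, each with an adjusted p of 0.993 from limma. An exact permutation test of 3 against 3 cannot go below 0.1, and it gave 0.7 for Reg3g, Reg3a and Reg1a and 0.5 for Reg3b.

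**Figure D3:**
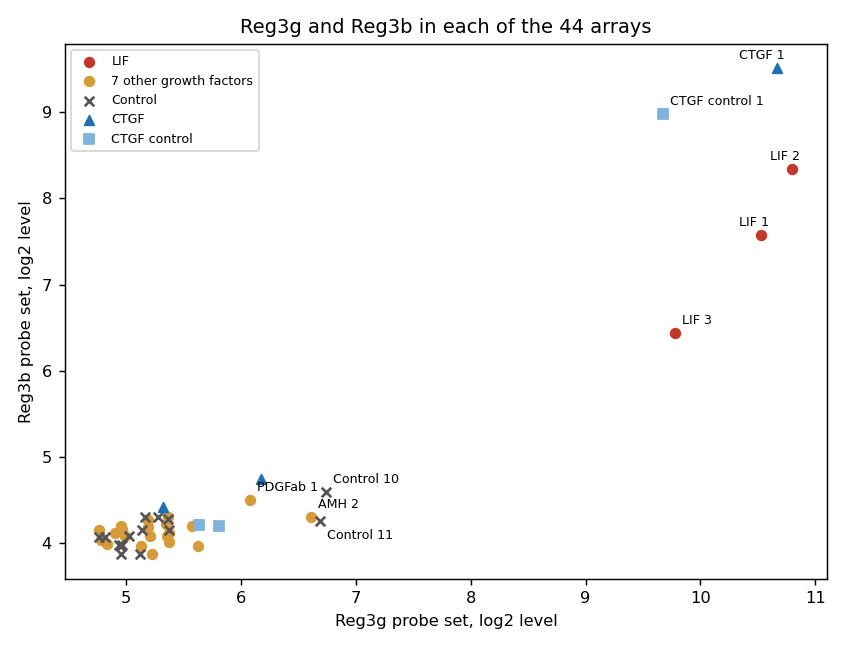
Log2 level of the Reg3b probe set (vertical axis) against that of the Reg3g probe set (horizontal axis) in each of the 44 arrays, with the arrays that stand out named. The 3 LIF arrays and replicate 1 of CTGF and of CTGF control are high on both axes, while Control 10, Control 11, AMH 2 and PDGFab 1 are shifted along the Reg3g axis and little along the Reg3b axis.

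Untreated ovaries of the first set also differed among themselves in Reg3g. Control samples 10 and 11 had log2 levels of 6.74 and 6.69, and the other 12 lay between 4.77 and 5.38. The SD of 0.62 over the 14 samples ranked 463 among all 27342 probe sets, and it was 0.20 over the 12 samples without these 2. Reg3b was highest in Control sample 10 (4.59) and stood at 4.26 in Control sample 11, with an SD of 0.20 that ranked 13902. For Reg3a the rank of the SD was 22400 and for Reg1a 13152, and in both genes Control sample 12 was the highest. Without Control samples 10 and 11 the LIF difference of Reg3g was 5.29.

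Over the 38 arrays of the first set the 4 genes correlated with each other at Pearson r between 0.85 and 0.95, a description in which the 3 LIF arrays carry the range. In the 35 arrays without LIF, Reg3g and Reg3b correlated at r = 0.61, Reg3g and Reg3a at 0.08, and Reg3g and Reg1a at 0.16. Reg3b and Reg3a correlated there at 0.54, Reg3b and Reg1a at 0.57, and Reg3a and Reg1a at 0.68. In these 35 arrays Reg3b thus correlated with each of the other 3 genes, and Reg3g mainly with Reg3b. Over the 6 arrays of the CTGF set Reg3g correlated at 0.99 with Reg3b, 0.95 with Reg3a and 0.95 with Reg1a. There the first sample of each group was the highest for all 4 genes. The Control means of Reg3b, Reg3a and Reg1a (4.14, 3.85 and 4.34) lay under the limit for dim probe sets. Control sample 12, the highest for Reg3a and Reg1a, was also the highest Control sample for acinar (5.42), islet (4.91) and neutrophil markers (4.38). The part of array background in these correlations was not tested. The arrays of the first set share 1 preprocessing, which of them share a litter or a culture day is not given in the sources used here, and no p is given.

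Signalling genes around LIF and genes of secreted proteins were counted together from lists of 102 genes. Of these, 93 had a probe set with 1 symbol. The lists held receptors, ligands, kinases and factors, STAT3 response genes, acute-phase, antimicrobial and other lectin genes, and a proposed Reg receptor. With LIF 12 of the 93 were higher and 0 lower at an adjusted p under 0.05 in limma, where 73 of all probe sets were called (0.267%), 70 of them higher (0.256%). Of the 12, 7 were genes of acute-phase secreted proteins. The median difference over the 93 genes was 0.06, against -0.02 over all probe sets. These lists were written with earlier results of these arrays known, so that the count is not independent evidence.

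Of 9 measured receptor genes, 3 rose with LIF. Lifr, the receptor chain specific to LIF and its nearest relatives, averaged 8.84 ± 0.12 with LIF and 8.10 ± 0.27 in Control ovaries (SD, n = 3 and 14, difference 0.74, SE 0.15, adjusted p = 0.0175 from limma). Osmr, the receptor chain for oncostatin M, was higher by 1.46 (SE 0.31, adjusted p = 0.0218) and Il1r1, the interleukin 1 receptor, by 1.28 (SE 0.24, adjusted p = 0.00775). Il6st, which encodes gp130 itself, differed by 0.20 (SE 0.14, adjusted p = 0.823). Without the first LIF sample none of these 3 receptor calls was made, and without the second none was either; that of Lifr was also lost without the third. With the replicate number as a block, which leaves Control samples 1 to 3, the calls of Osmr (adjusted p = 0.19) and Il1r1 (0.133) were lost, as were those of Stat3 (0.219) and Fgg (0.203) described next. Il1r1 was also called with FGF2, where it was higher by 1.32 (SE 0.24, adjusted p = 0.00326).

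None of 13 ligand genes was called with LIF, including Lif itself (difference 0.06) and Il6 (-0.11). With other factors Clcf1, a ligand of the CNTF receptor, was higher with FGF2 (0.72) and Cntf was lower with GDNF (-0.50), both at an adjusted p under 0.05. Stat3, the transcription factor of this pathway, was the only one called of 8 kinase and factor genes with LIF. It averaged 10.17 ± 0.24 with LIF and 9.65 ± 0.23 in Control ovaries (difference 0.53, SE 0.12, adjusted p = 0.0462), and the call was lost whichever LIF sample was left out.

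Of 13 STAT3 response genes 1 was called. Socs3, the feedback inhibitor of JAK kinases, had log2 levels of 9.28, 8.56 and 8.20 with LIF, against a Control range of 6.40 to 7.51. The groups did not overlap, and the difference was 1.93 (SE 0.18, adjusted p = 2.01e-08 from limma). Among 22 measured acute-phase genes, which encode proteins secreted in inflammation mainly by the liver, 7 rose and 0 fell with LIF, with a list median of 0.27. They were Kng2 (2.02), A2m (1.71), Kng1 (1.38), Clu (1.32), Fgg (1.29), Lbp (1.23) and Itih4 (0.62). Kng1 and Kng2 encode kininogens, A2m a protease inhibitor, Clu a secreted chaperone, Fgg a fibrinogen chain and Lbp the binder of bacterial lipopolysaccharide. Serpina3n, a serine protease inhibitor, had a difference of 1.79 with an adjusted p of 0.0624. Socs3, A2m, Kng1, Kng2, Clu and Itih4 remained called without any 1 of the LIF samples, whereas the call of Lbp was lost without the first and that of Fgg without the first or the second.

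Lectin and antimicrobial genes outside the family gave no such count. None of 15 secreted antimicrobial genes and none of 13 other secreted C-type lectin genes was called with LIF, with list medians of -0.08 and 0.02. Clec11a, a growth factor with a lectin fold, was higher with FGF2 (0.86), and Clec3a was higher with GDNF (0.40). Extl3, proposed as a receptor of Reg proteins, stood at 9.24 ± 0.14 with LIF and 9.48 ± 0.30 in Control ovaries (difference -0.24, adjusted p = 0.794 from limma).

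**Figure D4:**
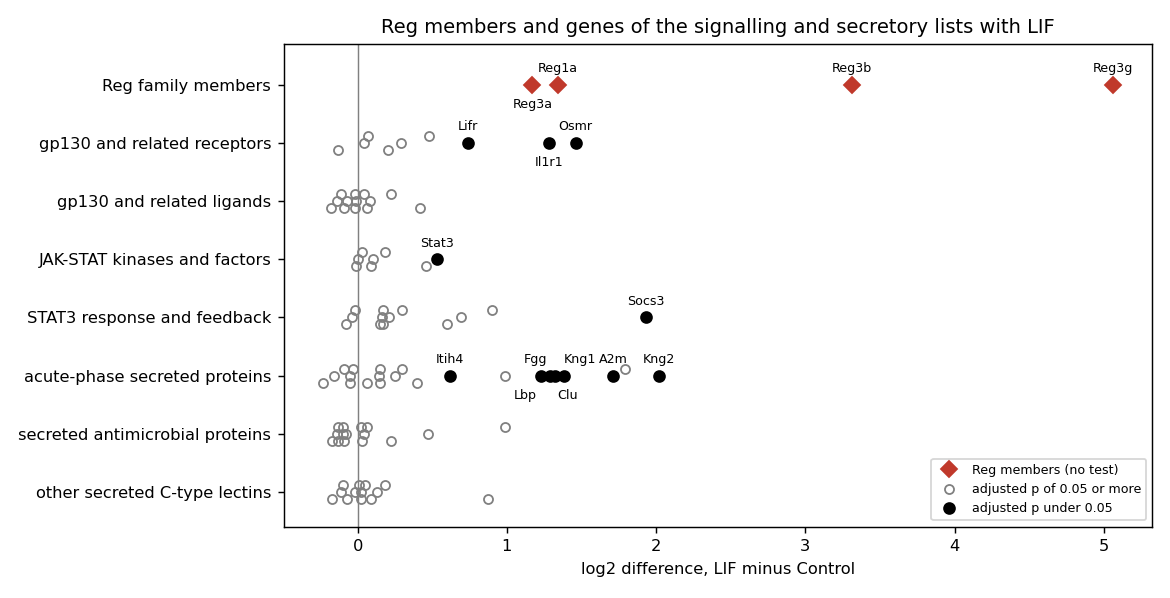
Difference in log2 level between LIF and Control ovaries (horizontal axis) for the 4 Reg genes and the measured genes of 7 lists (rows); diamonds are the Reg genes, which were not tested, filled circles are genes with an adjusted p under 0.05 in limma and open circles are the rest. The 12 named genes in the lists lie between 0.53 for Stat3 and 2.02 for Kng2. The acute-phase row holds 7 of them, the receptor row 3, and the STAT3 response and JAK-STAT rows 1 each.

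The same 12 genes were followed in the CTGF set. In 8 of the 12 the replicate 1 array was the highest of its group in both groups, as it was in 23.3% of all 27342 probe sets, and in 0 of 12 was it more than 1 log2 unit above the others in both. Lbp had log2 levels of 8.90, 6.77 and 7.00 with CTGF and 7.22, 6.60 and 6.60 in CTGF control ovaries. Osmr had 9.29, 7.81 and 7.78 with CTGF and 8.73, 7.99 and 7.95 in CTGF control ovaries, so that both genes were highest in the first sample of each group. Socs3 was high in the first CTGF sample alone, with 7.35, 6.35 and 6.32 with CTGF and 6.46, 6.39 and 6.05 in CTGF control ovaries. A2m, Kng1, Kng2 and Lifr were not highest in the first sample of both groups.

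Among the 93 list genes 4 were more than 1 log2 unit higher in the first sample of both groups of the CTGF set. So were Reg3g, Reg3b and Reg1a, and 0.735% of all probe sets. The 4 list genes are named here after their values were seen. Serpina3n had 9.79, 4.56 and 4.62 with CTGF and 8.67, 4.39 and 4.62 in CTGF control ovaries. Ccl2, a chemokine that attracts monocytes, had 11.80, 9.63 and 9.47 with CTGF and 12.01, 10.15 and 9.64 in CTGF control ovaries. The other two were Hpx, the plasma heme binder, and Junb, an immediate early transcription factor. With LIF, Ccl2 differed from Control ovaries by -0.08 (adjusted p = 0.978 from limma), whereas Serpina3n was higher but not called, as given above. Reg3g, Reg3b and Reg1a were thus high both with LIF and in the first CTGF pair. Serpina3n went the same way in both, and Ccl2 did not. Lif was not higher in that pair, with 4.91, 5.06 and 4.82 with CTGF and 5.10, 5.27 and 5.12 in CTGF control ovaries. Il6 had 5.18, 3.94 and 3.88 with CTGF and 4.66, 4.00 and 3.80 in CTGF control ovaries, highest in the first sample of each.

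**Figure D5:**
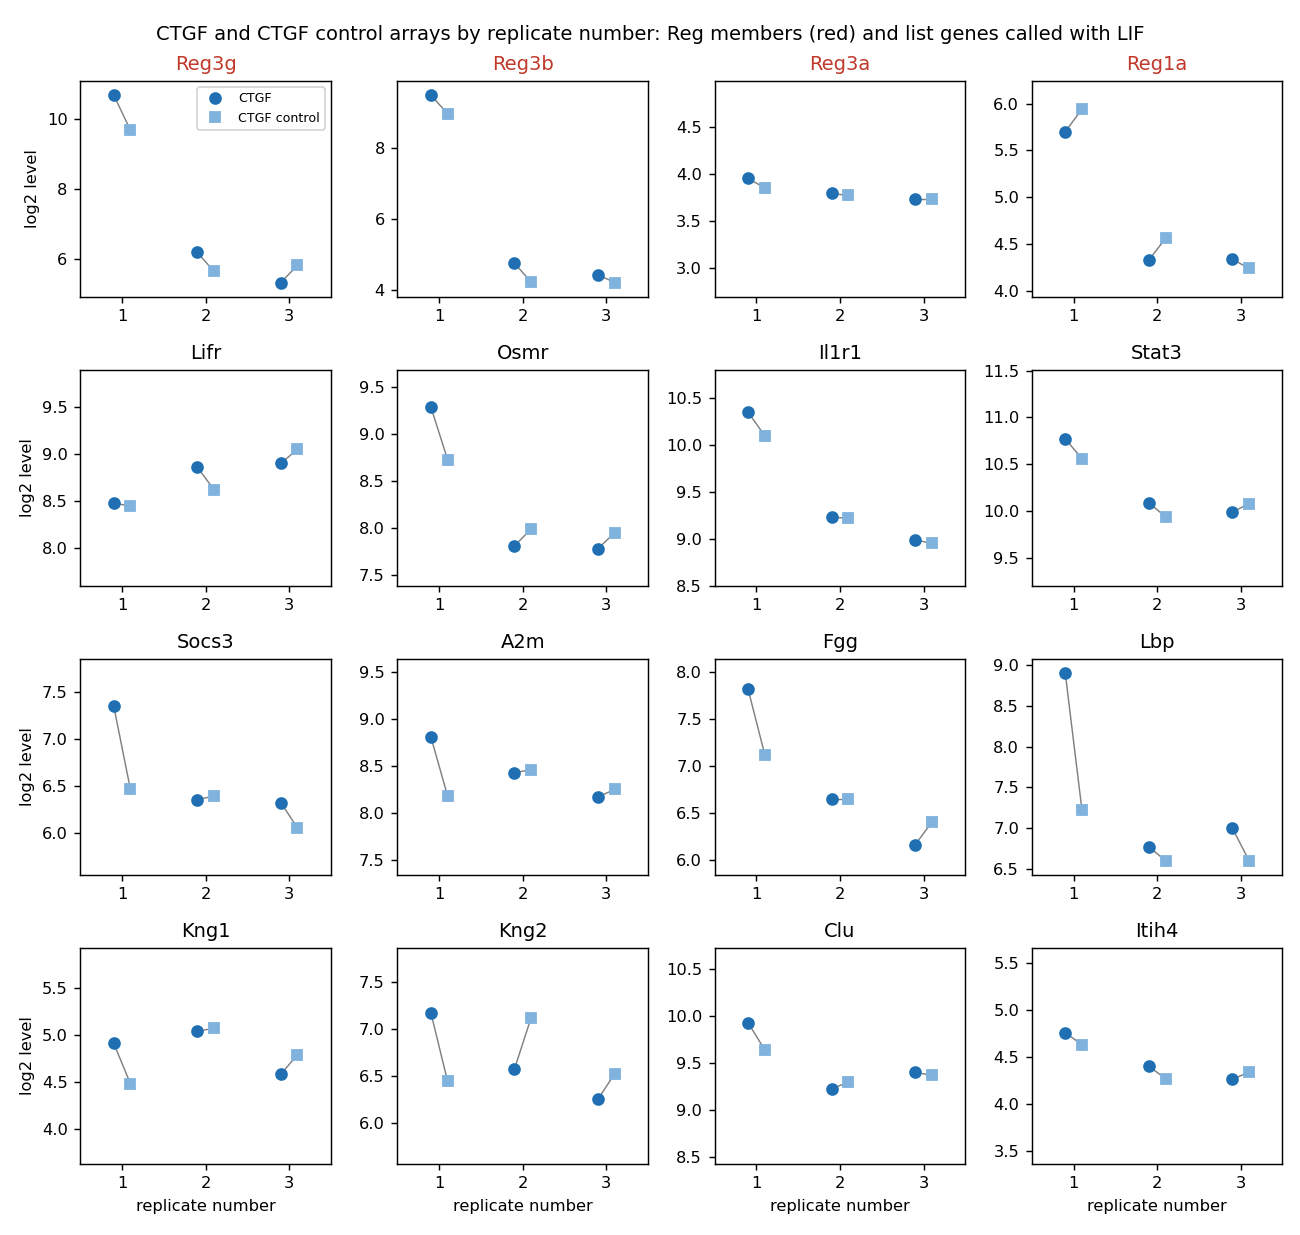
Log2 level (vertical axes) of the 4 Reg genes (red titles) and of the 12 list genes called with LIF in the 3 CTGF (circles) and 3 CTGF control (squares) arrays, by replicate number (horizontal axes), with lines joining arrays of the same number. Replicate 1 is high in both groups for Reg3g, Reg3b and Reg1a and flat for Reg3a, and it is the highest array of both groups in 8 of the 12 list genes.

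Markers of the cell types best known for Reg genes were low with LIF and in Control ovaries. The mean log2 level of 10 pancreatic acinar markers of 11 ran from 4.93 to 5.04 with LIF and from 4.94 to 5.42 in Control ovaries, and that of 6 islet markers of 7 from 4.37 to 4.45 with LIF and from 4.40 to 4.91 in Control ovaries. For 7 intestinal markers of 10 it was 4.66 to 4.69 with LIF and 4.54 to 4.79 in Control ovaries. None of these genes was called with LIF, and none was more than 1 log2 unit higher in the first sample of both CTGF groups. With LIF 1 of the 7 intestinal markers was above every Control sample, and no acinar or islet marker was. Of all probe sets 0.355% had all 3 LIF samples above every Control sample. With GDNF 9 of the 10 acinar, 6 of the 6 islet and 7 of the 7 intestinal markers were above the Control mean. Of these Chga, a granin of endocrine cells, was higher by 0.27 (adjusted p = 0.0217 from limma), and Fabp1 by 0.23 and Alpi by 0.36, both intestinal genes, were also called. Neutrophil markers (8 of 8) averaged 4.14 to 4.23 with LIF and 4.03 to 4.38 in Control ovaries.

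Markers of cells of the ovary and its surroundings varied more between samples. Macrophage markers (9 of 9) averaged 6.59 to 7.64 with LIF and 5.98 to 7.34 in Control ovaries, with 9 of 9 above the Control mean and 0 called. Surface epithelium markers (8 of 11) averaged 8.07 to 8.71 with LIF and 8.0 to 8.82 in Control ovaries. Of these Upk1b, a uroplakin, was higher by 1.24 with FGF2 (adjusted p = 0.026 from limma). Endothelial markers (3 of 5) averaged 7.29 to 7.98 with LIF and 7.15 to 7.96 in Control ovaries. Stromal markers (6 of 6) averaged 9.97 to 10.29 with LIF and 9.74 to 10.42 in Control ovaries. Oocyte markers (7 of 11) averaged 8.64, 9.59 and 9.62 in the 3 LIF samples, and 8.09 to 9.91 in Control ovaries. The first LIF sample was thus the lowest for oocyte and the highest for macrophage markers, and it was the middle one of the 3 for each Reg gene. Control sample 1 likewise had the lowest oocyte (8.09) and the highest macrophage mean (7.34) of the Control samples. In FGF2, KITLG and AMH the first sample was also lowest for oocyte markers (7.66, 8.55 and 9.62). It was highest there for macrophage markers (7.56, 7.67 and 7.17). The first samples of BMP4, FGF7, GDNF and PDGFab did not show both.

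In the CTGF set the marker lists differed in where the first sample of each group stood. Macrophage markers averaged 6.96, 7.39 and 7.22 with CTGF and 6.51, 7.32 and 7.01 in CTGF control ovaries, and stromal markers 10.41, 10.82 and 10.82 with CTGF and 10.36, 10.76 and 10.81 in CTGF control ovaries, both lowest in the first sample. Surface epithelium markers were also lowest there (8.30 and 8.28). Oocyte markers lay between 10.32 and 10.54 in all 6 arrays. Endothelial markers averaged 8.26, 7.96 and 8.06 with CTGF and 8.29, 8.05 and 8.05 in CTGF control ovaries, highest in the first sample. Neutrophil (4.30 and 4.27) and acinar markers (5.21 and 5.28) were also highest in the first sample of each group, narrowly. Islet, intestinal and pregranulosa markers were neither lowest nor highest there in both groups. Wnt4, a pregranulosa gene, was the only marker called with LIF (difference 0.79, SE 0.16, adjusted p = 0.0156 from limma), of 6 measured in its list of 7. The part of these cell types in the Reg levels was not tested.

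Genes outside the cluster were checked next. The 3 nearest genes with a probe set on one side, LRRTM1, Ctnna2 and Suclg1, and the 3 on the other, Lrrtm4, Gcfc2 and Mrpl19, differed between LIF and Control ovaries by -0.28 to 0.20, with a smallest adjusted p of 0.337 from limma. In the CTGF set Gcfc2 had 8.61, 8.67 and 8.62 with CTGF and 8.48, 8.62 and 8.57 in CTGF control ovaries, with no high first sample. None of the 6 was over 1 log2 unit higher there in both groups.

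The genes most like Reg3g over the 38 arrays, members left out, were Ptger3 (r = 0.92), Clu (0.87), Socs3 (0.84), Kng2 (0.83), A2m (0.82), Sectm1b (0.81), Itih4 (0.79) and Fgg (0.78), across 38 arrays that include the 3 LIF arrays. Ptger3, a prostaglandin E2 receptor, averaged 5.60 ± 0.21 with LIF and 4.56 ± 0.15 in Control ovaries (SD, n = 3 and 14). In the CTGF set Ptger3 had 6.05, 5.39 and 5.14 with CTGF and 6.12, 5.23 and 5.68 in CTGF control ovaries, and Sectm1b had 7.81, 6.42 and 6.57 with CTGF and 7.68, 6.70 and 6.35 in CTGF control ovaries, both highest in the first sample of each group.

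Taken as deviations from the group means, which removes the LIF difference, the list was a different one: Cldn2 (r = 0.83), Slc26a2 (0.81), Slc15a2 (0.80), Sema4c (0.77), RT1-Ba (0.77), Cuzd1 (0.76), Cldn1 (0.75) and Sft2d2 (0.74), over 38 arrays. Cldn2 and Cldn1 encode tight junction proteins and Slc15a2 a peptide transporter. In each of these 8 genes Control samples 10 and 11 were the 2 highest of the 14 Control samples, as they were for Reg3g. How far the r values rest on these 2 samples was not tested. Cldn1 had log2 levels of 7.82 and 8.21 in Control samples 10 and 11, the highest of 14 that began at 5.48. Cldn2 was 5.15 and 4.96 in these 2 samples, and it was 5.22 in the second AMH and 5.20 in the first PDGFab sample, the same arrays in which Reg3g was raised. With LIF, Cldn2 averaged 4.17 ± 0.20, against 4.37 ± 0.32 in Control ovaries (SD, n = 3 and 14). In the CTGF set Cldn1 had 5.63, 6.44 and 6.99 with CTGF and 5.78, 6.56 and 6.63 in CTGF control ovaries, lowest in the first sample of each group. Slc26a2, a sulfate transporter, had 9.27, 8.06 and 7.97 with CTGF and 8.87, 8.07 and 7.79 in CTGF control ovaries, highest in the first sample of each group as Reg3g was. No gene was in both lists of 8.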

How the data were processed

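RNA of 44 samples was hybridized to Affymetrix Rat Gene 1.0 ST arrays. The authors ran RMA with a GC-content adjustment in Partek Genomic Suite, on 38 arrays together and on the 6 CTGF arrays apart, and the resulting deposited log2 values were used unchanged. Groups were taken from the labels, and no array was left out. The platform annotation gave 1 symbol to 15097 of 27342 probe sets, several to 323 and none to 11922.

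Treated arrays were set against their own controls with limma 3.58.1 (lmFit, eBayes; R 4.3.3), the 38 arrays in 1 fit, and Benjamini-Hochberg adjustment over all probe sets at a threshold of 0.05. Single values outside the LIF comparison were also tested by exact two-sided permutation (680 splits for 3 against 14, smallest p 0.00147). The number of arrays limits the precision.

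The replicate numbers pair CTGF with CTGF control arrays, since the deviations of each pair from the group means correlated (r = 0.842, 0.623 and 0.647 over all probe sets). In the first set they did not pair as a whole. Replicate 1 of LIF, FGF2 and KITLG did correlate with Control sample 1 (r = 0.694, 0.74 and 0.615). Replicate 1 of PDGFab had 0.34 and that of BMP4 0.248, and those of AMH, FGF7 and GDNF lay between -0.00973 and 0.0874. For replicates 2 and 3 r ran from -0.555 to 0.222.

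The members, the gene lists and the tests were chosen with earlier results of these data known. Genes named by rule were the members, list genes called in a comparison, the 8 most like Reg3g over 38 arrays and over deviations, and the 3 neighbours on each side of the cluster. Other list genes named (Il6st, Lif, Il6, Serpina3n, Ccl2, Hpx, Junb, Extl3 and Reg4) were chosen after their values were seen. A list gene is its brightest probe set. Other tests, normalizations, filters, blocks and left-out arrays were tried. The choices to leave out Control samples 10 and 11 and the replicate 1 pair, to give the list count under more settings, and to set the study's limits on the limma p, were made after seeing the data.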

Additional observations from a re-analysis of the deposited data

How the results depend on the processing

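The LIF differences of the members kept their direction under every alternative run. Every LIF sample lay above every Control sample, so leaving out samples could not change that direction. The LIF contrast also chose the members, so nothing is read from it. With the replicate block, which leaves Control samples 1 to 3, the differences were 5.16 for Reg3g, 3.35 for Reg3b, 1.18 for Reg3a and 1.35 for Reg1a. Leaving out each LIF sample in turn gave 4.84 to 5.35 for Reg3g and 2.87 to 3.82 for Reg3b. The count of members called with the 7 other factors was 0, and it was 0 under the study criteria, 1 under their limits with the limma p (Reg3g with AMH) and 1 with array quality weights (Reg1a with GDNF). No member was called with CTGF under any setting, the pair as a block included, and the block changed no other call of a member.

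Leaving out 1 array gave Reg3g with PDGFab -0.01 to 0.41, without the first PDGFab sample at the low end. For CTGF minus CTGF control it gave -1.29 to 1.67 for Reg3g, -1.21 to 2.02 for Reg3b, -0.02 to 0.09 for Reg3a and -0.58 to 0.39 for Reg1a, the ends mostly without one of the replicate 1 arrays, and array quality weights gave -0.08 for Reg3g. List genes called with LIF numbered 12, 19 under the study criteria, 20 under their limits with the limma p, 7 by the methods' t-test, and 6 to 12 without 1 LIF sample, with 6 when the first was left out. In the first set the replicate block called 9 list genes, 8 of them among the 12. All probe sets called with LIF numbered 73, from 19 by the methods' t-test or without the first LIF sample to 242 without Control samples 10 and 11, and 790 under the study criteria, which adjust no p. With the adjusted p the ranges of the other counts were 0 to 10 for AMH (main 0), 0 to 1249 for BMP4 (75), 13 to 414 for FGF2 (257), 0 to 1158 for FGF7 (22), 5 to 5637 for GDNF (517), 0 to 544 for KITLG (12) and 0 to 1130 for PDGFab (64), and the study criteria gave 348 for AMH to 1339 for FGF2. The paper reports fewer changed genes for LIF and for each of these factors than the study criteria gave here. For CTGF it reports more. The counts of the paper were thus not reproduced by its criteria as applied here. The cause of this gap, and of the shifts between settings, was not tested. Reg3b, Reg3a and Reg1a did not pass the filter on dim probe sets in the first set (a mean log2 level over 4.52), so that they have no value under it, and signal near the background limits what their small differences can show. No member had another probe set to compare.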
